A study of Mus musculus with 18 samples.

Results

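The genes of serine synthesis and amino acid uptake examined here are 10 genes chosen by symbol: Phgdh, Psat1, Psph, Shmt1, Shmt2, Mthfd2, Slc7a5, Slc3a2, Asns and Chac1. Each symbol matched a single line of the 34745 genes in the deposited mouse RNA-seq table, and all 10 were among the 14241 genes whose counts were high enough to be tested. The study cultured bone marrow-derived macrophages (BMDMs), precursors of the bone-resorbing osteoclast, and sequenced them before and during exposure to RANKL, the cytokine that drives osteoclast formation. There were 18 libraries in 6 groups of 3, namely cells of mice labelled wild type (WT) or Zmat1 knockout (KO) at day 0, day 1 and day 3 of RANKL. Per the study's methods, the knockout is global and on a C57BL/6 background, the controls were wild-type littermates, and all cells, day 0 included, first received M-CSF, a macrophage growth factor. The series' description gives 3 days of it, and the study's methods give a longer time for such cultures. The study's figure legend gives M-CSF together with RANKL. No group was cultured for 1 or 3 days without RANKL, so that RANKL and days in culture cannot be told apart. No label says whether libraries of a group came from separate animals, so that the p-values measure the spread between libraries, which may be technical.

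Cells make serine from a glycolytic intermediate in 3 steps: Phgdh oxidises it, Psat1 transfers an amino group to the product and Psph removes the phosphate. Shmt1 in the cytosol and Shmt2 in mitochondria pass a carbon of serine to folate, and Mthfd2 oxidises that carbon unit in mitochondria for use in nucleotide synthesis. Slc7a5 is the light chain of a transporter of large neutral amino acids and Slc3a2 the heavy chain that carries it to the cell surface, Asns makes asparagine, and Chac1 breaks down glutathione. Many of these genes are known targets of ATF4, the transcription factor of the amino acid stress response, and serine synthesis has been linked to osteoclast formation.

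Depth was even, at 13789775 to 17559958 counts per library. The libraries labelled KO were not separated by the gene they are named for: Zmat1 had at least 32 counts in each WT library and at least 49 in each KO library, and its log2 difference, KO against WT, was 0.24 at day 0, 0.40 at day 1 and 0.63 at day 3 (edgeR adjusted p = 0.93, 0.821 and 0.615). The study's methods describe genotyping of the mice by PCR on tail DNA, and the study also measured Zmat1 RNA by qPCR in such cells; neither was analysed here, and counts per gene do not show which exons the reads came from. WT and KO refer to the labels throughout. The titles of 5 libraries are written with a double hyphen (WT day 0 library 1, a WT day 1 library 1, KO day 0 library 2, and KO day 1 libraries 1 and 2), and WT day 1 holds 2 libraries numbered 1, told apart here as double and single. Osteoclast markers summed to 224 to 649 CPM (counts scaled to a common library size) in WT day 0 libraries and to 16039 to 23381 CPM at day 3, against 8293 to 17734 CPM in KO day 3 libraries. Macrophage markers summed to 30603 to 58328 CPM at WT day 0 and to 6566 to 13479 CPM at day 3.

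The promoters of Asns and Chac1 are shown because, of the members searched, they alone held a letter match to any motif sought. That motif was the C/EBP-ATF response element, the kind of site that ATF4 uses. Mthfd2 was searched too and held no match, and its WT log2 change from day 0 to day 3 was the same as that of Asns, 2.74. RefSeq (GRCm38.p6) gave promoters for 9 of the 10 members, 10 promoters in all since Psat1 had a pair. Slc7a5 had no promoter in the reference used and was not searched. The 250 bases before each start were searched on both strands for TGATGNAA (the C/EBP-ATF element), CACGTG (the E-box) and TGACGTNA (a CRE-like site). TGATGNAA stood in 3.45% of 32851 mouse promoter windows, CACGTG in 6.02% and TGACGTNA in 2.52%, and no member window held either of the last 2 motifs. The Asns match lay 23 bases before the RefSeq start, at chr6:7693225-7693232, which GENCODE vM21 places in the first exon and 5′ UTR of Asns, and it is printed with 11 bases on each side (chr6:7693214-7693243, minus strand). The Chac1 match, on the opposite strand to the gene, lay 193 bases before the start at chr2:119351049-119351056, upstream of the gene, and is printed within chr2:119350992-119351228, plus strand. Capitals mark the match, and such a match is a description of letters, not a mapped binding site.
Asns: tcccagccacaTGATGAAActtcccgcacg
Chac1: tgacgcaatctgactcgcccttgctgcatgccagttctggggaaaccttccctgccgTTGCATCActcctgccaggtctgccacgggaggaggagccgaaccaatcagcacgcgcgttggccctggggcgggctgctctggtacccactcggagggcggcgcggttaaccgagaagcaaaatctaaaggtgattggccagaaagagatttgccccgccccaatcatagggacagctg

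Compared per length, as FPKM (fragments scaled to transcript length and to depth), Shmt2 was the most abundant transcript, with a median of 33.6 FPKM over the 18 libraries, followed by Slc3a2 at 27.3 and Slc7a5 at 11.1 FPKM. Psat1, Phgdh, Asns and Mthfd2 had median levels of 7.39, 7.12, 5.65 and 5.19 FPKM. Shmt1 (1.35 FPKM), Psph (1.24 FPKM) and Chac1 (1.09 FPKM) were the lowest. The mitochondrial enzyme of the Shmt pair thus exceeded the cytosolic one in every library, with Shmt2 to Shmt1 FPKM ratios from 14.8 to 36.3. The spread over libraries did not follow the level: the highest library exceeded the lowest by 105-fold in CPM for Chac1, by 26.6-fold for Phgdh and by 18.3-fold for Asns, but by 4.90-fold for Shmt2, 3.46-fold for Psph and 3.04-fold for Slc3a2. The lowest Chac1 library, WT day 0 library 1, held a single count of it.

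**Figure D1:**
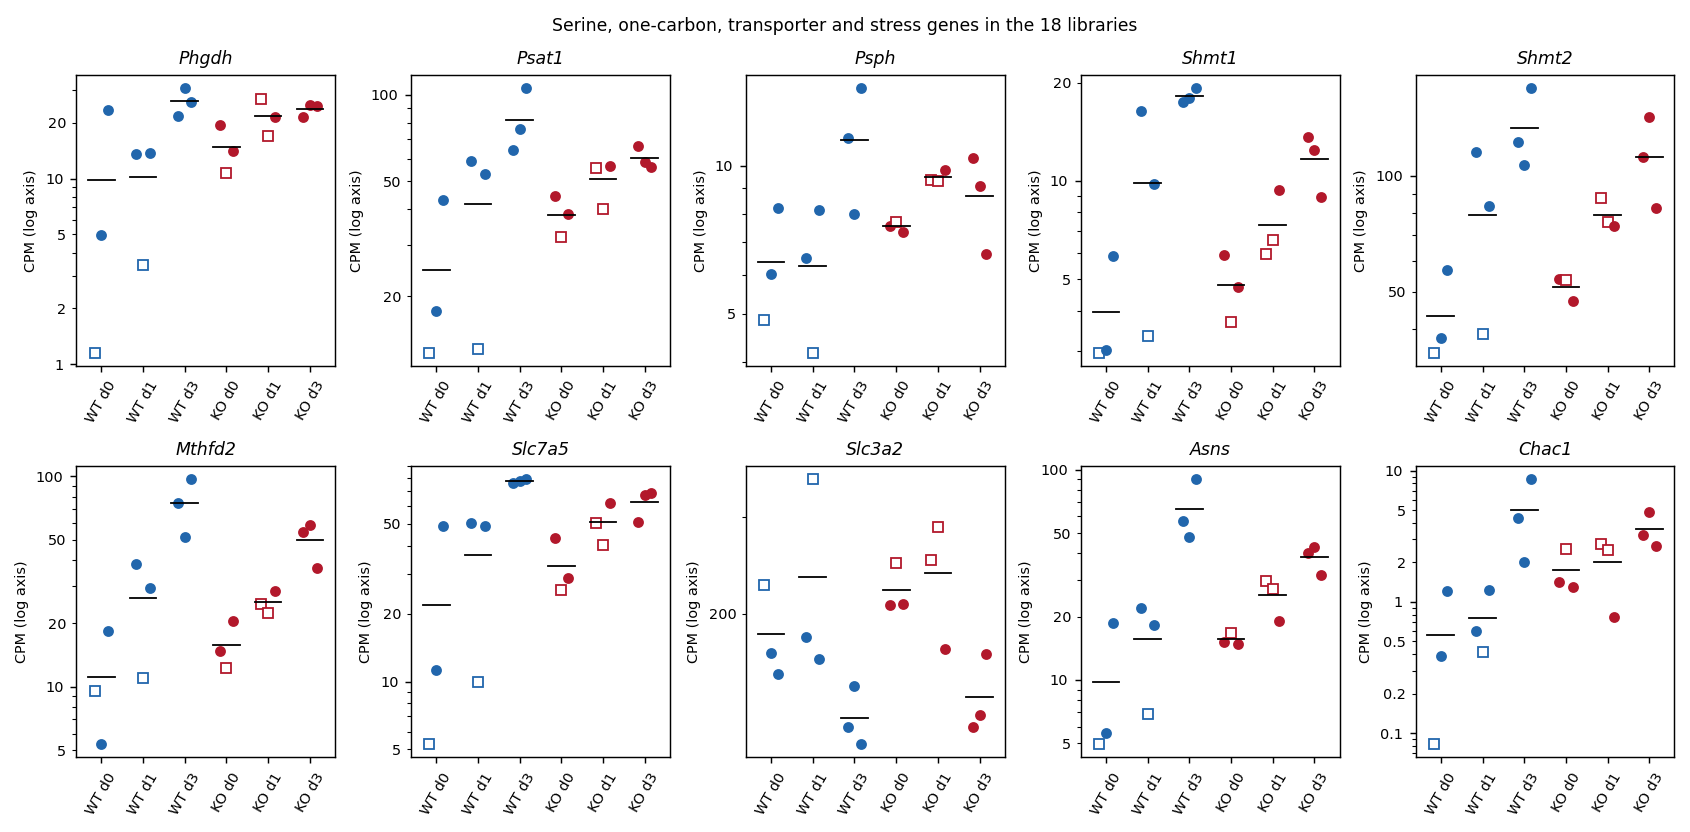
CPM of each gene (log axis) in every library, grouped by label and RANKL day, with bars at the group means and open squares for the 5 libraries with a double hyphen in the title. Asns ran from 4.95 to 18.7 CPM at WT day 0 and from 47.9 to 90.3 CPM at WT day 3, whereas the group means of Slc3a2 were lowest at day 3.

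Most of this gene group was higher after 3 days of RANKL in WT libraries. Against day 0, 8 of 10 members were higher at an edgeR quasi-likelihood adjusted p under 0.05, where 23.7% of all tested genes were called higher, and none was lower, against 26.5%. The members' median log2 change was 1.78, against -0.03 for all tested genes. Chac1, Mthfd2 and Asns changed most, Phgdh did not pass the test, and Slc3a2 had a negative value. In KO libraries 4 of 10 members were higher over the same days, against 20.2% of all genes, and these were Mthfd2, Asns, Shmt1 and Shmt2, while none was lower, against 22.3%. Leaving out single KO libraries lowered this count to 2 for either of libraries 2 and 3 of day 0 and for library 1 of day 3, and to 1 for library 2 of day 3. With only the 2 KO groups in the fit it was 8, of which 7 were higher.

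Among the 3 serine synthesis enzymes, Psat1 and Psph rose in WT libraries and none passed the test in KO libraries. With only the KO groups of day 0 and day 3 in the fit, Phgdh (log2 change 0.68, edgeR adjusted p = 0.0465) and Psat1 (0.65, adjusted p = 0.0125) were called there as well. Phgdh, the entry enzyme (chr3:98313170-98339990, GRCm38, minus strand), stood at 1.15, 4.95 and 23.3 CPM in WT day 0 libraries 1, 2 and 3, at 3.42 (double), 13.6 (single) and 13.7 CPM at day 1, and at 21.7, 30.8 and 25.8 CPM at day 3. WT day 0 library 3 was already inside the day 3 range, so that the groups overlapped. The log2 change of Phgdh was 1.40 (SE 0.69, edgeR adjusted p = 0.102). Without WT day 0 library 3 it was 3.11 and called. In KO libraries Phgdh stood at 19.4, 10.7 and 14.0 CPM at day 0, at 26.6, 16.9 and 21.4 CPM at day 1 and at 21.4, 24.7 and 24.4 CPM at day 3. The KO day 3 range began above the day 0 range, and the log2 change was 0.68 (SE 0.68, adjusted p = 0.438).

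Psat1, the aminotransferase of the second step (chr19:15904678-15947337, minus strand), stood at 12.7, 17.7 and 43.2 CPM in WT day 0 libraries and at 64.0, 76.0 and 106 CPM at day 3, with no overlap. Its log2 change was 1.74 (SE 0.47, adjusted p = 0.00770), against 0.65 (SE 0.46, adjusted p = 0.268) in KO libraries, where it went from 32.1 to 44.4 CPM at day 0 to 56.1 to 66.3 CPM at day 3. Psph, the phosphatase (chr5:129765558-129787449, minus strand), had the smallest called change, 0.82 (SE 0.27, adjusted p = 0.0216) in WT libraries. The Psph ranges overlapped, with 4.86, 6.04 and 8.22 CPM at day 0 and 11.4, 7.998 and 14.4 CPM at day 3, and its call was lost when WT day 0 library 1 or 2 or WT day 3 library 3 was left out, with log2 changes of 0.69, 0.81 and 0.61. In KO libraries its log2 change was 0.21 (SE 0.27, adjusted p = 0.557). The ratio of Psat1 to Psph FPKM went from between 2.41 and 4.85 at WT day 0 to between 5.19 and 8.78 at day 3, without overlap (exact permutation test on log2 ratios, two-sided p = 0.1, the smallest p that 3 against 3 libraries allow, so that no such ratio could pass 0.05).

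The 3 folate-linked enzymes rose from day 0 to day 3 of RANKL under both labels. Mthfd2, the mitochondrial folate enzyme (chr6:83305691-83325908, minus strand), stood at 9.56, 5.34 and 18.5 CPM in WT day 0 libraries, at 11 (double), 38.5 (single) and 29.5 CPM at day 1, and at 74.6, 51.7 and 97.1 CPM at day 3. In KO libraries it stood at 14.8, 12.3 and 20.5 CPM, then 24.6, 22.4 and 28.4 CPM, then 54.3, 58.7 and 36.9 CPM. No day 3 library of either label fell to the level of a day 0 library. The log2 change of Mthfd2 from day 0 to day 3 was 2.74 (SE 0.46, adjusted p = 0.000297) in WT and 1.65 (SE 0.44, adjusted p = 0.00877) in KO libraries.

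Shmt1, the cytosolic hydroxymethyltransferase (chr11:60788104-60811718, minus strand), stood at 2.97, 3.02 and 5.86 CPM at WT day 0, at 3.33 (double), 16.4 (single) and 9.79 CPM at day 1, and at 17.5, 17.9 and 19.3 CPM at day 3. Its KO libraries read 5.92, 3.69 and 4.73 CPM at day 0, 5.96, 6.59 and 9.39 CPM at day 1, and 13.6, 12.4 and 8.89 CPM at day 3. All 3 WT day 3 libraries lay above all 3 KO day 3 libraries, and both groups lay above their own day 0 libraries. The log2 change was 2.20 (SE 0.44, adjusted p = 0.00103) in WT and 1.28 (SE 0.43, adjusted p = 0.0271) in KO libraries, where the call was lost on leaving out either of libraries 2 and 3 of day 0 or of libraries 1 and 2 of day 3, at 1.15 to 1.31.

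Shmt2, its mitochondrial counterpart (chr10:127517123-127522444, minus strand), stood at 34.6, 37.9 and 56.9 CPM at WT day 0 and at 123, 107 and 170 CPM at day 3. KO libraries went from 47.2 to 53.9 CPM at day 0 to 82.8 to 142 CPM at day 3, again without overlap. The log2 change of Shmt2 was 1.63 (SE 0.32, adjusted p = 0.000946) in WT and 1.12 (SE 0.32, adjusted p = 0.0117) in KO libraries, where it was 0.92 and not called without KO day 3 library 2. The Shmt2 to Shmt1 FPKM ratio was 24.1 to 31.1 at WT day 0 and 14.8 to 21.8 at day 3, without overlap (exact permutation p = 0.1, again the smallest possible). In KO libraries the 2 days overlapped, at 22.6 to 35.9 and 20.3 to 28.4 (exact permutation p = 0.6).

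The 2 chains of the amino acid transporter had log2 changes of opposite sign from day 0 to day 3. Slc7a5, the light chain (chr8:121881150-121907694, minus strand), stood at 5.28, 11.2 and 49.0 CPM at WT day 0, at 9.9995 (double), 50.3 (single) and 48.9 CPM at day 1, and at 76.1, 77.8 and 79.1 CPM at day 3. The day 0 libraries were 9.28-fold apart, while those of day 3 differed by 1.04-fold. The log2 change was 1.83 (SE 0.64, adjusted p = 0.0285), and without any 1 of WT day 0 library 1 or 2 or the 3 WT day 3 libraries it missed the threshold, at values between 1.40 and 1.84. Without WT day 0 library 3 it was 3.26 and called. KO libraries read 43.4, 25.4 and 28.8 CPM at day 0, 50.7, 40.5 and 62.2 CPM at day 1 and 51.0, 67.5 and 68.4 CPM at day 3, a log2 change of 0.94 (SE 0.63, adjusted p = 0.238) without overlap between day 0 and day 3, and it was called with only those groups in the fit (adjusted p = 0.0161).

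Slc3a2, the heavy chain (chr19:8706882-8723369, minus strand), was the member with values below 0 in both labels. It stood at 225, 170 and 155 CPM at WT day 0, at 352 (double), 182 (single) and 165 CPM at day 1, and at 124, 148 and 116 CPM at day 3. In KO libraries it stood at 208, 248 and 208 CPM, then 250, 288 and 173 CPM, then 124, 131 and 169 CPM. In CPM, day 3 libraries lay below all day 0 libraries of their label, but the log2 changes of -0.50 (SE 0.26, adjusted p = 0.122) in WT and -0.65 (SE 0.26, adjusted p = 0.0606) in KO libraries did not pass the test. In FPKM the WT days overlapped, at 22.1 to 29.0 on day 0 and 21.0 to 25.5 on day 3. Scaled by total counts, the WT log2 change was -0.13 (edgeR adjusted p = 0.572). The KO value passed with the title style as a term (-0.45, adjusted p = 0.0362), with only the groups compared (-0.65, adjusted p = 0.0142), with the WT day 1 pair averaged (-0.62, adjusted p = 0.0273) and without the double-hyphen libraries (-0.50, adjusted p = 0.0236), and it was -0.36 and not called when scaled by total counts. Within a library, the Slc3a2 to Slc7a5 FPKM ratio was 27.7, 9.82 and 2.06 at WT day 0 and 1.06, 1.23 and 0.950 at day 3, and 3.11, 6.34 and 4.69 at KO day 0 and 1.58, 1.26 and 1.60 at day 3. The mean log2 ratio, day 3 minus day 0, was -2.94 in WT and -1.62 in KO libraries, with no overlap in either label (exact permutation p = 0.1 for each, the smallest possible).

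**Figure D2:**
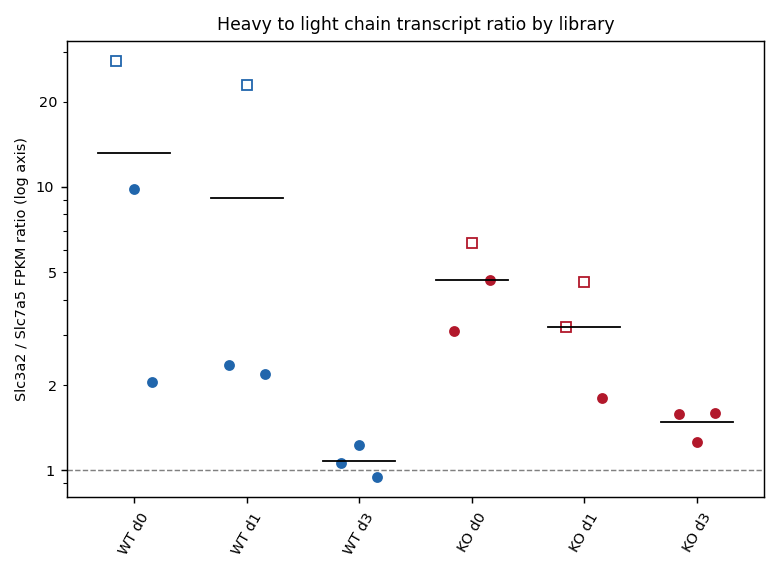
Ratio of Slc3a2 to Slc7a5 FPKM in each library (log axis; bars are group means, open squares are libraries with a double hyphen in the title, and the dashed line marks equal FPKM). The 3 WT day 3 libraries lay between 0.950 and 1.23, and the double-hyphen WT libraries of day 0 and day 1 stood at 27.7 and 22.8.

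Asns and Chac1, the members with the promoter matches printed above, changed by 6.66-fold and 8.62-fold in WT libraries. Mthfd2, in which no match was found, changed by 6.68-fold. Asns, the asparagine synthetase (chr6:7675169-7693254, minus strand), stood at 4.95, 5.57 and 18.7 CPM at WT day 0, at 6.92 (double), 22 (single) and 18.3 CPM at day 1, and at 57.0, 47.9 and 90.3 CPM at day 3. KO libraries read 15.2, 16.8 and 14.9 CPM, then 29.5, 27.2 and 19.0 CPM, then 40.3, 42.7 and 31.7 CPM. The 3 days did not overlap in the KO libraries, nor did day 3 overlap with the earlier days in WT. The log2 change of Asns from day 0 to day 3 was 2.74 (SE 0.48, adjusted p = 0.000418) in WT and 1.29 (SE 0.46, adjusted p = 0.0350) in KO libraries. The KO call was lost without any 1 of the 3 KO day 0 libraries or of KO day 3 libraries 1 and 2, with log2 changes of 1.21 to 1.37.

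Chac1, the glutathione-degrading enzyme (chr2:119351229-119354381, plus strand), rested on few reads before RANKL. It had 1, 5 and 17 counts in WT day 0 libraries and 84, 34 and 154 counts at day 3, or 0.0824, 0.387 and 1.22 CPM against 4.34, 2.00 and 8.64 CPM. KO libraries held 20, 33 and 18 counts at day 0 and 54, 79 and 47 at day 3, or 1.43, 2.54 and 1.31 CPM against 3.22, 4.83 and 2.66 CPM. Its log2 change was 3.11 (SE 0.76, adjusted p = 0.00383) in WT and 1.02 (SE 0.69, adjusted p = 0.243) in KO libraries, although day 0 and day 3 libraries did not overlap in either label. Counting by groups that do not overlap in CPM, 7 members were higher and Slc3a2 lower at WT day 3 (31.5% and 31% of all genes), and 8 were higher and Slc3a2 lower at KO day 3 (29.4% of all genes in each direction).

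**Figure D3:**
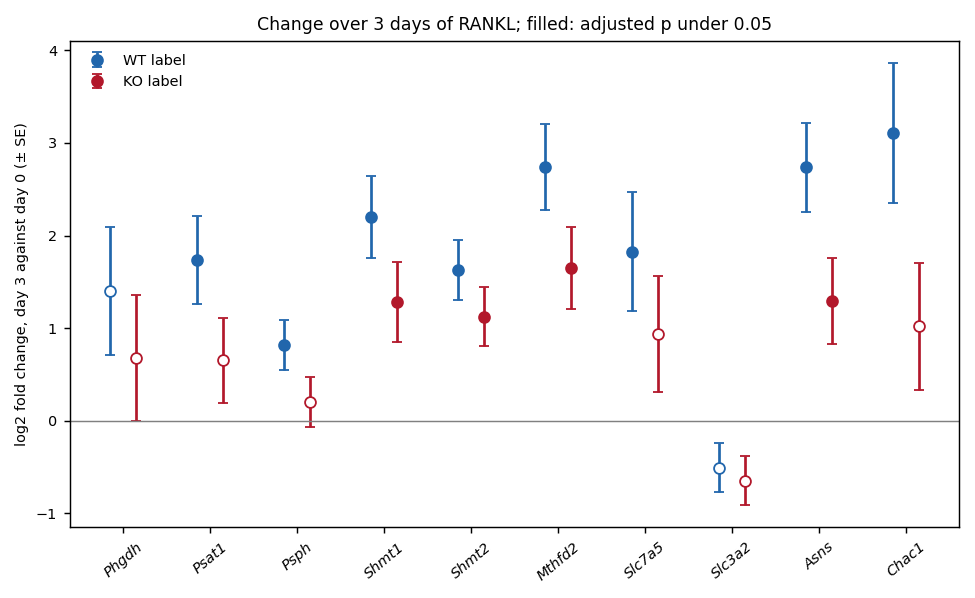
Log2 fold change from day 0 to day 3 with its SE for each gene and label, filled where the edgeR adjusted p was under 0.05. The WT value lies above the KO value for all 10 genes, and 8 WT and 4 KO points are filled.

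After 1 day of RANKL no member was called in either label. In WT libraries 0 of 10 passed the edgeR test, where 2.35% of all genes did; 3 had an unadjusted p under 0.05, DESeq2 called 1 and limma 0. These 3 were Shmt1, with a log2 change of 1.32 (SE 0.43, adjusted p = 0.108), Mthfd2 with 1.24 (SE 0.44, adjusted p = 0.132) and Shmt2 with 0.88 (SE 0.32, adjusted p = 0.137). The double WT day 1 library was the lowest of its group for 9 members and the highest for Slc3a2, and without it the same 3 genes were called, with log2 changes of 1.73, 1.62 and 1.21. In KO libraries 0 of 10 passed, against 0.0211% of all genes, with 0 at an unadjusted p under 0.05 and 0 by DESeq2 or limma. Still, 5 members (Psph, Shmt1, Shmt2, Mthfd2 and Asns) lay higher at KO day 1 than at day 0 without overlap, against 8.55% of all genes.

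From day 1 to day 3, 4 members rose in WT libraries and 1 fell, where 12.7% and 19.3% of all genes did. Asns rose by a log2 change of 2.04 (SE 0.47, adjusted p = 0.00482), Chac1 by 2.71 (SE 0.73, adjusted p = 0.0122), Mthfd2 by 1.496 (SE 0.44, adjusted p = 0.0185) and Psph by 0.84 (SE 0.27, adjusted p = 0.0284), while Slc3a2 fell, with a log2 change of -0.85 (SE 0.26, adjusted p = 0.0247). Only Asns passed without the double WT day 1 library or without WT day 3 library 3. The Slc3a2 call was lost in 11 of 19 alternatives, and its log2 change was -0.40 without the double WT day 1 library, -0.37 without the 5 double-hyphen libraries and -0.49 when scaled by total counts. In KO libraries Slc3a2 passed alone, at -0.75 (SE 0.26, adjusted p = 0.0473), where 15.5% of all genes fell. That call was lost in 14 of 19 alternatives. The log2 change of Slc3a2 was -0.73 with the replicate number as a block, -0.31 with the title style as a term, -0.26 without the double-hyphen libraries and -0.45 when scaled by total counts.

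By mean CPM, WT day 0 was the lowest group and WT day 3 the highest for Phgdh, Psat1, Shmt1, Shmt2, Mthfd2, Slc7a5, Asns and Chac1, with KO day 3 next to the top in each. For Asns the means were 9.73, 15.6, 15.7, 25.3, 38.2 and 65.1 CPM in WT day 0, KO day 0, WT day 1, KO day 1, KO day 3 and WT day 3. Neighbours overlapped up to KO day 1, and the last 2 steps were free of overlap. For Phgdh, Psat1 and Shmt2 every pair of neighbours overlapped. Slc3a2 had the reverse end of the order, with WT day 3 (129 CPM) and KO day 3 (141 CPM) lowest, each overlapping with its neighbour.

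No member passed the test between labels, although some groups did not overlap. At day 0, day 1 and day 3 and averaged over days, 0 of 10 members were called between KO and WT by edgeR (0.119%, 0.112%, 0.14% and 1.59% of all genes), with 0, 1, 0 and 0 at an unadjusted p under 0.05 and 0 by DESeq2 or limma. At day 3, 9 of 10 log2 differences were negative, with a median of -0.41 against 0.02 for all genes. The largest were those of Asns, -0.77 (SE 0.45, adjusted p = 0.573), Shmt1, -0.65 (SE 0.42, adjusted p = 0.614), and Mthfd2, -0.58 (SE 0.43, adjusted p = 0.66). Asns, Shmt1 and Slc7a5 were lower in KO day 3 libraries without overlap, where 13.3% of all genes were. Stromal and osteoblast markers, described below with a fit that holds them, also differed between the labels at day 3. All 9 tested had positive values, with a median of 1.06, and none was called. Without overlap, 8 lay higher in KO libraries, against 15.9% of all genes. Averaged over days, Phgdh was called once WT day 0 library 3 was left out, at a log2 difference of 1.06 (adjusted p = 0.0329) against 0.50 with it. Before RANKL the sign was opposite: all 10 log2 differences were positive at day 0, the largest for Chac1 at 1.60 (SE 0.75, adjusted p = 0.655), which alone did not overlap (4.9% of all genes). At day 1, Phgdh (log2 difference 1.07, SE 0.69, adjusted p = 0.713) and Psph (0.60, SE 0.27, adjusted p = 0.625) lay higher in KO libraries without overlap (6.83% of all genes).

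Whether the change over RANKL differed between the labels was tested as an interaction, the KO change from day 0 to day 3 minus the WT change. All 10 values were negative, from -0.14 for Slc3a2 to -2.09 for Chac1 (SE 1.00, unadjusted p = 0.0550, adjusted p = 0.910). Asns had -1.44 (SE 0.65, unadjusted p = 0.0418, adjusted p = 0.910). None of the 10 passed, 1 had an unadjusted p under 0.05, and DESeq2 and limma called 0 (edgeR called 0% of all genes). The 10 values share the same day 0 libraries, and WT day 0 library 1 was lowest in its group for 8 members. The Asns value was -2.33 without WT day 0 library 3 and -1.08 without the 5 double-hyphen libraries.

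**Figure D4:**
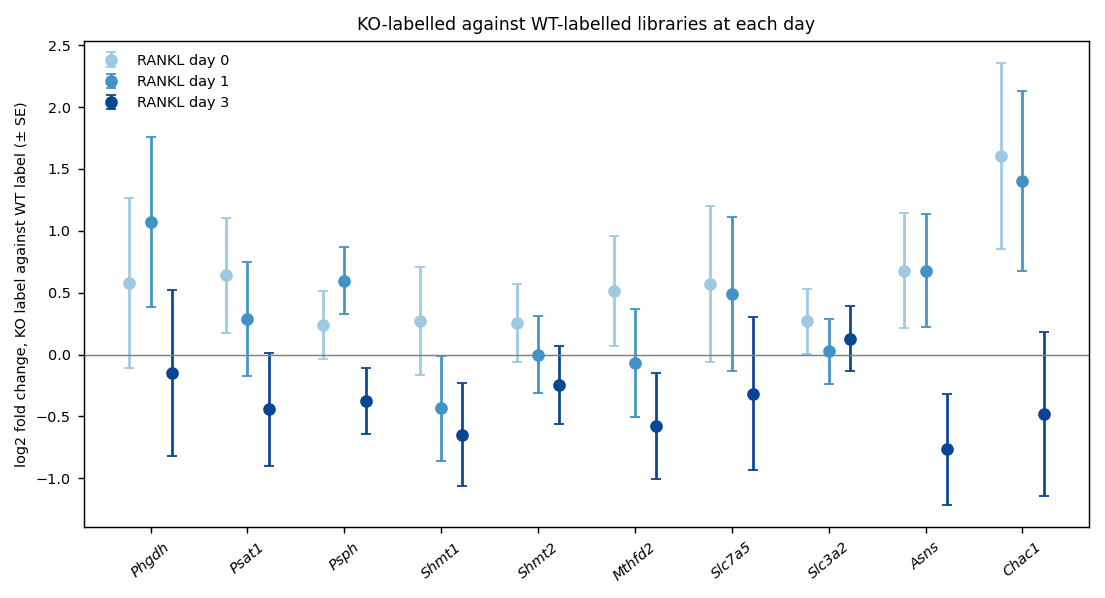
Log2 difference between KO-labelled and WT-labelled libraries with its SE for each gene at RANKL day 0, 1 and 3. Chac1 stands at 1.60 at day 0 and -0.48 at day 3, and no point passed the edgeR test.

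Markers of stromal and osteoblast cells moved with several members. In bulk RNA, fewer cells of a type and less RNA per cell cannot be told apart. Of 10 such markers 9 were tested. From day 0 to day 3, 5 of these rose in WT libraries (23.7% of all genes) and 8 in KO libraries (20.2% of all genes). Bglap was the only one of the 10 at 0 in any library. Their summed level was 78.1, 479 and 4327 CPM in WT day 0 libraries 1, 2 and 3, 194 (double), 2535 (single) and 2235 CPM at day 1, and 10086 to 13090 CPM at day 3. In KO libraries the sums were 908 to 3205 CPM at day 0, 1995 to 7303 CPM at day 1 and 18337 to 26099 CPM at day 3. The libraries with the lowest sums, WT day 0 library 1 and the double WT day 1 library, were also those with the least Phgdh.

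With the log2 of this sum added to the model, a fit chosen after the data were seen, 6 members rose with it at an adjusted p under 0.05 (14.6% of all genes) and Slc3a2 fell. Per doubling of the marker sum the log2 change was 0.60 (SE 0.06) for Phgdh, 0.55 (SE 0.04) for Slc7a5, 0.36 (SE 0.05) for Psat1, 0.29 (SE 0.07) for Shmt1, 0.29 (SE 0.08) for Asns, 0.25 (SE 0.08) for Mthfd2 and -0.16 (SE 0.04) for Slc3a2, within the label and day groups. In that fit 2 members remained called between WT day 0 and day 3, Mthfd2 at a log2 change of 1.74 and Asns at 1.72. Chac1 had 2.35 (SE 0.95), Shmt1 1.01, Shmt2 0.92, Psat1 0.35, Psph 0.30 and Slc7a5 0.05, none of them called. In KO libraries none remained higher, and Phgdh, at -1.38, and Slc7a5, at -0.96, were called lower. Between labels at day 3 no member was called in that fit. The log2 difference, KO against WT, was -1.07 for Asns, -0.94 for Shmt1, -0.90 for Slc7a5 (SE 0.19, edgeR adjusted p = 0.0701), -0.81 for Psat1 and -0.76 for Phgdh. Slc3a2 alone was positive, at 0.30. The marker sums of day 3 did not overlap with those of earlier days in either label, so that day and marker level cannot be fully told apart. Nor did the sums of the 2 labels overlap at day 3, so that the same holds for label and marker level there. In each group with both title styles, the double-hyphen libraries had the lowest sums, such as 908 CPM against 3119 and 3205 CPM at KO day 0. The changes per doubling within groups thus cannot be fully told apart from the title style, whose fit is given below.

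**Figure D5:**
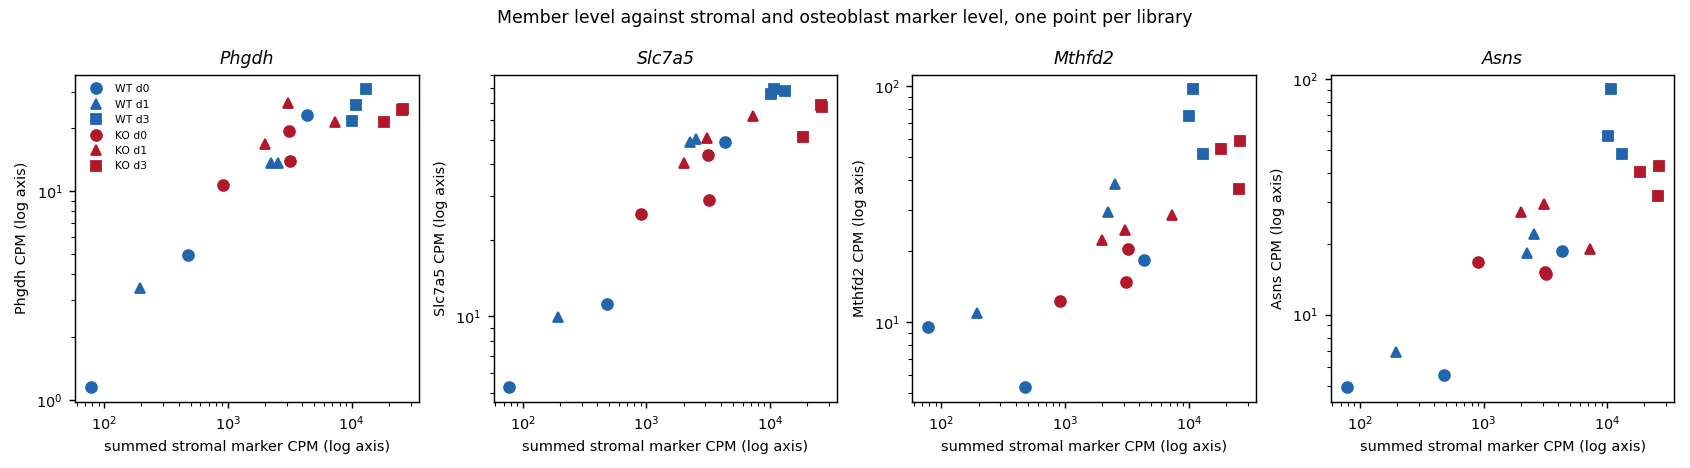
CPM of Phgdh, Slc7a5, Mthfd2 and Asns (log axis) against the summed CPM of 10 stromal and osteoblast markers (log axis), 1 point per library, coloured by label and shaped by day. Phgdh and Slc7a5 are lowest in the libraries with marker sums of 78.1 and 194 CPM, and WT day 3 points stand above KO day 3 points for Asns at lower marker sums.

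Other markers moved as well. Neutrophil markers summed to 662 to 3012 CPM at WT day 0 and 3650 to 11714 CPM at KO day 0. All 8 fell to day 3 in both labels, against 26.5% of all genes in WT and 22.3% in KO libraries. Averaged over days, 3 neutrophil, 1 B cell and 1 stromal or osteoblast marker were called higher in KO libraries, against 1.14% of all genes. Cell cycle markers summed to 283 to 636 CPM at WT day 0 and 798 to 1068 CPM at WT day 3, with 2 of 10 called higher (23.7% of all genes). In KO libraries they summed to 380 to 742 CPM and 666 to 840 CPM, with 0 called higher (20.2% of all genes). B cell markers summed to 296 to 406 CPM at WT day 0 and 10.2 to 10.5 CPM at WT day 3, erythroid markers to at most 24.5 CPM and T and NK cell markers to at most 3.12 CPM in any library. Their part in the members' changes was not tested. The double-hyphen title style, fitted as a term beside label and day, was called for 4 members, where 23.2% of all genes were: Psat1 at -0.94, Shmt1 at -0.89, Slc7a5 at -1.34 and Slc3a2 at 0.61 (log2, double minus single; adjusted p = 0.0338, 0.0229, 0.0273 and 0.00336). What the title style stands for is not given in the labels, and it cannot be fully told apart from the stromal marker level described above.

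The genes that work beside the members were counted in lists made by function. Over the same days 23.7% of all genes were called higher and 26.5% lower in WT libraries, and 20.2% and 22.3% in KO libraries, with medians of -0.03 and -0.01, against which the counts of each list are to be read. Of 24 tested one-carbon and folate genes, 15 rose and 1 fell from day 0 to day 3 in WT libraries, and 11 rose and 0 fell in KO libraries, with a WT median log2 change of 1.09. Among them, the mitochondrial folate enzymes Aldh1l2 and Mthfd1l rose by log2 changes of 2.42 and 1.68 in WT and 1.98 and 1.42 in KO libraries, and the cytosolic Mthfd1 by 1.48 and 0.78. Sfxn1, the mitochondrial serine carrier, rose by 1.40 and 1.02. The gene that fell in WT libraries, named after its values were seen, was Srr, the serine racemase, with a log2 change of -0.54, and -0.060 in KO libraries.

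Aminoacyl-tRNA synthetases, which charge tRNAs with amino acids and include ATF4 targets, moved one way. Of 20 tested, 17 rose and 0 fell in WT libraries and 14 rose and 0 fell in KO libraries. Gars, Yars, Iars and Mars, the largest by the naming rule, rose by log2 changes of 1.42, 1.40, 1.34 and 1.31 in WT and 1.02, 1.06, 1.03 and 1.00 in KO libraries. Amino acid transporters were called in both directions, as all genes were, with 7 of 20 higher and 8 lower in WT libraries, and 6 higher and 7 lower in KO libraries. The cationic carrier Slc7a1 rose by 3.07 and 2.10, the neutral carriers Slc1a5 by 2.71 and 2.05 and Slc1a4 by 2.55 and 2.66, and the glycine carrier Slc6a9 by 1.92 and 1.23.

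Genes of the ATF4 and amino acid stress response were also called in both directions, with 9 of 23 higher and 7 lower in WT libraries, and 8 higher and 6 lower in KO libraries, and a WT median of 0.08. The proline synthesis enzymes Pycr1 and Aldh18a1 rose by log2 changes of 3.15 and 2.50 in WT and 2.53 and 2.06 in KO libraries, and the lipoprotein receptor Vldlr by 2.53 and 2.10. Atf3, a stress-induced transcription factor, fell, at -2.20 and -1.95. Atf4 itself, named after its values were seen, rose by 1.08 (SE 0.12) in WT and 0.73 (SE 0.12) in KO libraries. In the list of mTORC1 and Myc genes 3 of 9 rose and 4 fell in WT libraries. Myc, which drives growth and nucleotide synthesis, rose by 2.49 and 1.34, while Sesn1, an inhibitor of mTORC1, fell, at -1.93 and -1.58, and so did the Myc partner Max, at -1.23 and -1.11. In KO libraries 1 rose and 2 fell.

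Between labels, 2 of these list genes were called, 1 of 20 amino acid transporters and 1 of 24 one-carbon and folate genes. Of all genes, 0.119% were called at day 0 and 1.59% averaged over days. Slc36a1, a lysosomal amino acid carrier, averaged 47.8 CPM at WT day 0 and 194 CPM at KO day 0, a log2 difference of 2.02 (SE 0.35, adjusted p = 0.037), and 1.73 (SE 0.20, adjusted p = 0.000331) over the 3 days. Gcsh, a protein of the glycine cleavage system, had 0.70 (SE 0.12, adjusted p = 0.0114) over the 3 days. No member was among them.

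The genes nearest to each member were found by the root mean square difference of centred log2 CPM over the 18 libraries, among 10695 genes with a mean of at least 5 CPM. Phgdh lay nearest to Slc7a5 (0.313 log2 units), another member, then to Nes (0.349). Slc7a5 lay nearest to Nes (0.298) and Csf1, which encodes M-CSF (0.304). Shmt2 lay nearest to Mthfd1l (0.208) and C1qbp (0.221), Shmt1 to Myc (0.234) and Trmt61a (0.252), and Mthfd2 to Slc7a1 (0.272) and Myo10 (0.275). Asns lay nearest to Aldh18a1 (0.380) and Mthfd2 (0.387), and Chac1 to Asns (0.553) and Dclk1 (0.628). Psat1 was nearest to Cobll1 (0.298) and Dut (0.331), Psph to Rpl13 (0.265) and Trdmt1 (0.273), and Slc3a2 to Wbp2 (0.152) and Edem2 (0.158). These distances also hold what the libraries share, including the marker levels and title style described above.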

How the data were processed

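RNA-seq of mouse BMDMs was deposited as 1 table for 18 libraries, in which the authors gave raw read counts and FPKM per gene. The submitters' processing notes name StringTie and the builds mm10 and GRCm38.p4, and the aligner and the counting program are not given in the sources used here. All 36 value columns matched a sample by title (0 did not). Tests used the deposited counts and edgeR 4.0.16 under R 4.3.3. Of 34745 genes, filterByExpr kept 14241, which were scaled by TMM, and tested with glmQLFit and glmQLFTest over the 6 label and day groups together, with Benjamini-Hochberg adjustment over all tested genes and a threshold of 0.05. CPM uses TMM-scaled library sizes. FPKM as deposited by the authors served for comparisons between genes. Groups and numbers came from the titles. The intervals that depth gives cover counting error only.

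The members and lists were chosen with earlier results of these data known. In the one-carbon and folate list, counts and median leave out a gene that is not reported here. The text names all 10 members and the 2 nearest genes per member. From each list made by function it names up to 4 genes called alike in both labels. These have the largest WT change from day 0 to day 3. Any gene of those lists called between labels is named too. Cell type markers are given mainly as sums and counts. Libraries of the same replicate number had correlated deviations between KO day 0 and day 3 (correlation 0.13 to 0.398 in 3 of 3 pairs). The same held for KO day 1 and day 3 (0.156 to 0.34), while the other pairs of groups did not reach 0.1 in every pair. WT day 0 library 1, of the double-hyphen style, had 0.604 with the double WT day 1 library and -0.464 with the single one. Between KO day 0 and day 1 the values were 0.501 for library 2 (both double), 0.598 for library 3 (both single) and 0.0536 for library 1 (1 of each style). Libraries of different numbers were not compared, so these values, from the data and not the labels, do not establish pairing. Alternatives were DESeq2 1.42.0 (its size factors and its Wald test), scaling by total counts, no filter, at least 5 CPM in 3 libraries, the title style as a term, the replicate block, only the groups compared, the WT day 1 pair numbered 1 averaged, limma 3.58.1 on log2(FPKM + 1) and log2(FPKM + 0.1), and leaving out each library. After the data were seen, a fit without the 5 double-hyphen libraries and one with the stromal marker level as a term were added. The edgeR fit was tested on simulated data.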

Additional observations from a re-analysis of the deposited data

How the results depend on the processing

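With 3 libraries a group, 1 library decided several counts. Leaving out each library in turn, the members called ranged from 6 to 9 for WT day 3 against day 0, with 6 without WT day 0 library 1 or 2 or WT day 3 library 3 and 9 without WT day 0 library 3. They ranged from 1 to 4 for KO day 3 against day 0 (1 without KO day 3 library 2), from 0 to 4 for WT day 1 against day 0 (4 without WT day 0 library 3), from 1 to 7 for WT day 3 against day 1, from 0 to 1 for KO day 3 against day 1, and from 0 to 1 for the labels averaged over days, the 1 being Phgdh. The counts between labels at each day, of the interaction and of KO day 1 against day 0 were 0 in every alternative. In the same fits the log2 difference between labels at day 3 ranged from -0.86 to 0.17 for Chac1, positive without WT day 3 library 3, and from -0.020 to 0.23 for Slc3a2, negative without KO day 3 library 3.

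For KO day 3 against day 0, 8 members were called with only the groups compared in the fit (7 higher, 1 lower). For WT day 1 against day 0, 1 was called with the title style term, by the DESeq2 Wald test and without the double-hyphen libraries, and 2 with the WT day 1 pair averaged. For WT day 3 against day 1, 3 were called with only the groups compared, 9 by limma on log2(FPKM + 1) and 2 without the double-hyphen libraries. For KO day 3 against day 1, 0 were called with DESeq2 size factors, total counts, no filter, 5 CPM, the title style term, limma on log2(FPKM + 0.1) or without the double-hyphen libraries, and 2 with only the groups compared or the WT day 1 pair averaged. Among single genes from day 0 to day 3 (log2 changes in brackets), the WT calls of Psph (0.85) and Slc7a5 (1.86) ended with only the groups compared, that of Psph also without the double-hyphen libraries (0.72), and the KO call of Asns with the title style term (1.12), while Phgdh was called in WT with the replicate block (2.18) and by limma (1.89 and 2.56). With only the groups compared, Phgdh (0.68), Psat1 (0.65), Slc7a5 (0.94) and Slc3a2 (-0.65) were called in KO beside the 4 of the report. With the replicate block 9 members were called for WT day 3 against day 0, 4 for KO day 3 against day 0, 2 for WT day 3 against day 1 and 0 for KO day 3 against day 1, and no other count of members changed. The numbers are not known to pair the libraries of either label. With the stromal marker term the counts were 2 for both changes from day 0 to day 3 (both lower in KO), 0 for WT and 2 for KO day 3 against day 1. In that fit the log2 change from day 0 to day 3 turned for Phgdh (-0.40 in WT, -1.38 in KO), Slc3a2 (0.22 in WT), Psat1 (-0.59 in KO), Psph (-0.24 in KO) and Slc7a5 (-0.96 in KO), and the averaged label difference of Phgdh turned to -0.080. The cause was not tested for any of these. Scaling by total counts moved the median log2 change of all genes from day 0 to day 3 from -0.03 to 0.33 in WT and from -0.01 to 0.29 in KO libraries and turned no called member.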
